A study of Schizosaccharomyces pombe with 28 samples.

Results

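Dimethylation of histone H3 at lysine 9 (H3K9me2) was compared over the open reading frames (ORFs) of swm1Δ and wild-type fission yeast, Schizosaccharomyces pombe, on 2 spotted ORF arrays, B1 and B2, of the 28 arrays of the series. These were chosen by title, as the ORF arrays for H3K9me2 in the swm1 deletion. After chromatin immunoprecipitation with an antibody against the mark, DNA of both strains was labelled with different dyes and hybridised together, so an array gives the ratio of swm1Δ over wild type for each ORF and not the amount of the mark in either strain. Each ORF has 2 spots on an array and thus 4 data points, and 4896 ORF features were measured. The groups are a strain whose swm1 ORF was replaced by a drug resistance cassette and a wild-type strain. The labels name no other allele, growth condition or treatment. The methods state that the immunoprecipitates were independent, and that dyes were swapped between the arrays.

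In fission yeast H3K9 is methylated by Clr4, which acts in a complex with Rik1 and the cullin Pcu4. The mark is bound by the chromodomain proteins Swi6, Chp1 and Chp2, is targeted to centromeric repeats by RNA interference, and is known for silenced heterochromatin at centromeres, telomeres and the mating-type locus rather than for the bodies of most genes. Swm1 and Swm2 are homologues of the human demethylase LSD1, and share a complex with the PHD finger proteins Swp1 and Swp2. Because the ratios of each array were centred by normalization, a gain of H3K9me2 in swm1Δ cells at an ORF relative to other ORFs would appear here as a positive log2 ratio on both arrays, and a gain shared by most ORFs would not appear.

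The labelled mark was first checked at loci known to carry it. For each ORF the H3K9me2 intensity of a strain was divided by the H3K4me2 intensity of that strain on 2 companion arrays, C1 and C2, on a log2 scale centred on the median of all ORFs. The 80 ORFs nearest the ends of chromosomes I and II (20 at each end) had medians of 2.19 and 1.48 in wild type on B1 and B2, and of 1.95 and 2.00 in swm1Δ. Between 69 and 80 of the 80 ORFs were above 0 in the 4 channels, and the medians of the other ORFs lay between -0.10 and -0.02. SPAC212.11 (tlh1), which encodes a subtelomeric helicase, stood at 4.37 and 3.91 in wild type and 3.77 and 4.11 in swm1Δ, with its Cy5 spots saturated on both arrays. The chromosome ends were thus bright for H3K9me2 relative to H3K4me2 in both strains and on both arrays. These values set different antibodies and slides against each other, without input. More H3K9me2 signal and less H3K4me2 signal cannot be told apart in them, so they are no measure of the amount of either mark.

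**Figure D1:**
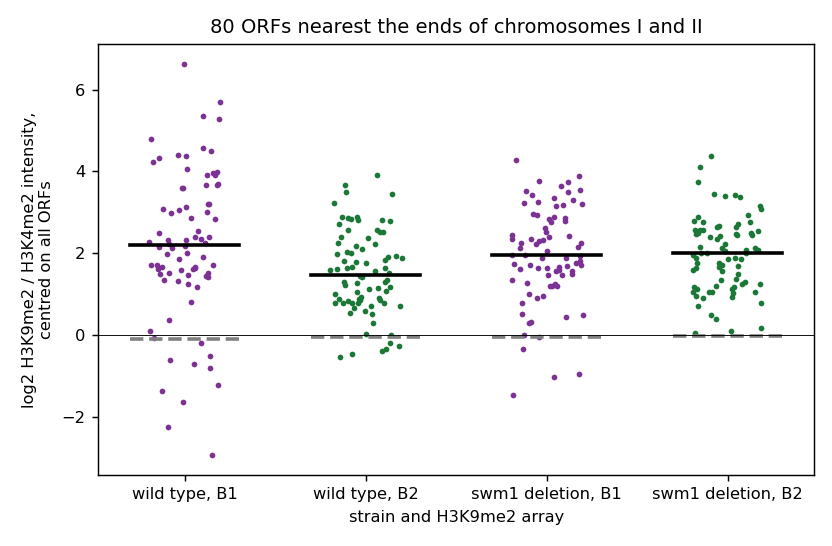
Log2 H3K9me2 over H3K4me2 intensity (vertical axis, centred on all ORFs) of 80 ORFs at chromosome ends, 1 point per ORF, for each strain and H3K9me2 array. Black bars are the medians of these ORFs (2.19, 1.48, 1.95 and 2.00 from left to right) and grey dashed bars those of the other ORFs, which lie near 0.

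The ratios of the same end ORFs did not share a direction. Their median log2 ratio of swm1Δ over wild type was 0.33 on B1 and 0.09 on B2, against 0.12 and -0.01 over all ORFs. Over these 80 ORFs 3 were high and 2 low by the rule given below, or 3.75% and 2.50%, beside 3.69% and 3.84% of the other placed ORFs. The ratio of tlh1 was 1.32 on B1 and 0.47 on B2, with swm1Δ in the saturated dye on B1 and wild type in it on B2. SPAC212.03 and SPAC212.04c, neighbours near the left end of chromosome I, were called in opposite directions, at 3.39 and 1.07 against -3.34 and -1.10 on B1 and B2.

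The arrays differed in signal. On B1 the median signal was 834 in Cy3, over a local background of 14, and 6734 in Cy5, over 1387. On B2 it was 3166 in Cy3, over 18.5, and 9789 in Cy5, over 2032. Signal reached 1.5 times the background on 89.3% of the spots in Cy3 and 92.9% in Cy5 on B1, and on 99.7% and 94.8% on B2. Cy3 on B1 was thus the dimmest of the channels, and 324 ORFs had both of their B1 spots under this level in Cy3.

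The direction of B1 is likely rather than settled. The label of the ORF part of its slide names swm1 for Cy3, the label of the other part of the slide names wild type for Cy3, and a dye swap with B2, whose label names swm1 for Cy3, requires the second reading, which was used. The log2 ratios deposited for B1 also ran in this direction, with a Pearson correlation of 0.712 with those from the scanner intensities. The deleted gene, swm1 (SPBC146.09c), had data points of -1.65 and -1.22 on B2, a mean of -1.43 where wild type was 3.21 times its background. The swm1Δ strain lacks this ORF, yet its dye, Cy3, was 53.2 times the background there. A Cy3 signal above background is thus no proof of signal from the ORF itself. On B1 the data points of swm1 were -0.07 and 0.12. Neither dye was well above background there, with a signal of 1.33 times the background in Cy3 and 1.14 times in Cy5. B1 therefore carries no usable measurement of the deleted gene, and its ratio there is no evidence for either reading. On C1 and C2 the H3K4me2 ratios of the gene were -4.04 and -3.76. With B1 read by its own label 174 ORFs were high and 131 low in place of the 177 and 185 described next, and none of the ORFs were the same. This lack of shared calls is nearly fixed in advance. The other reading turns every B1 ratio, and a call by the rule below always includes a B1 data point.

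The 2 spots of an ORF gave nearly the same ratio and the 2 arrays did not. Across ORFs the spots had a Pearson correlation of 0.977 on B1 and 0.947 on B2, whereas the array means correlated at 0.0594 (Spearman 0.0478, n = 4896 ORFs, which are not independent replicates). The SD of a single spot around its ORF was 0.26 on B1 and 0.19 on B2 on the log2 scale, against 1.29 for a single array. The median gap between the arrays was 1.13, close to the doubling used as a cut-off. B1 also spread wider, with an SD over ORFs of 1.69 against 0.82 on B2, and ran from -6.43 to 5.68 against -3.80 to 3.28. The sign was the same on both arrays for 2495 ORFs, or 51.0%.

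The disagreement was not limited to dim ORFs. Over the 3715 ORFs with every spot at least 1.5 times its background the arrays correlated at 0.0621. Over the 4167 ORFs with no spot flagged in the scanner data they correlated at 0.0679. In 4 equal groups of the ORFs by their Cy3 signal on B1, from dim to bright, the correlation was 0.101, 0.120, 0.169 and 0.036. Calls moved with this signal, as the dimmest group held 52 high and 0 low ORFs and the brightest 13 high and 53 low. This signal is that of wild type, the lower term of the B1 ratio. The groups thus share a term with the calls and correlations within them, and such a split of the calls is partly built in. The part of this signal in the result was not tested. Channels of the same strain were not always closer to each other than those of different strains. With the dyes as read, channels of the same strain carry different dyes and those of different strains the same dye. Strain and dye therefore cannot be told apart in this comparison, and the strains of the B1 pairs swap if B1 follows its own label. The intensities of wild type on B1 and B2 had a Spearman correlation of 0.393 and those of swm1Δ 0.565, while wild type on B1 with swm1Δ on B2 gave 0.461 and the reverse pair 0.476. For H3K4me2 the same comparison gave 0.891 and 0.887 within a strain and 0.777 and 0.747 between strains.

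**Figure D2:**
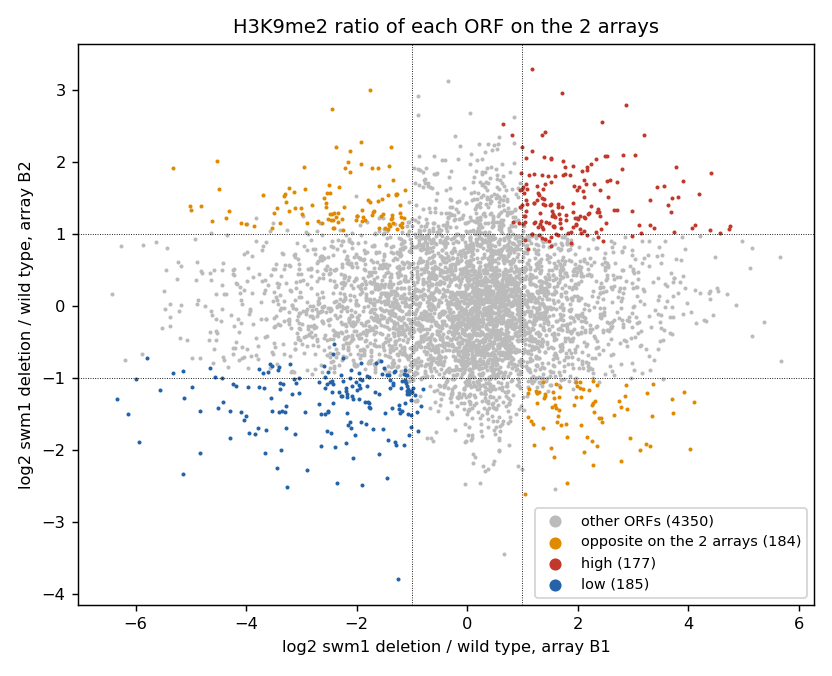
Log2 ratio of swm1Δ over wild type of each of 4896 ORFs on array B1 (horizontal) and array B2 (vertical), with dotted lines at a ratio of 2.0 and 1/2.0. Red and blue points are the 177 high and 185 low ORFs, orange points the 184 ORFs past the cut-off in opposite directions, and the cloud shows no slope.

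By the rule of the methods an ORF is high when at least 3 of its 4 data points reach a ratio of 2.0, and low when they are at or below 1/2.0. There were 177 high ORFs, or 3.62%, and 185 low ORFs, or 3.78%. By B1 alone, without B2, both spots passed in 1014 ORFs upward and 1164 downward, and by B2 alone in 472 and 402. With median centring in place of loess 289 ORFs were high and 183 low, so that 61.2% of the calls were high in place of 48.9%. All 4 data points passed in 118 of the high (2.41% of ORFs) and in 105 of the low ORFs (2.14%). Beside these, 184 ORFs (3.76%) had both spots past the cut-off in opposite directions on the 2 arrays, 77 up on B1 and down on B2 and 107 the other way. An ORF up on both spots of B1 was up on both spots of B2 in 11.6% of cases, against 9.64% of all ORFs, and down on B2 in 7.59%, against 8.21%. An ORF down on B1 was down on B2 in 9.02% and up in 9.19% of cases. The shares seen on one array thus changed little with the call on the other.

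When the mean ratio of the 2 arrays was tested against 0 with limma, which leaves 1 residual degree of freedom, 0 ORFs (0%) were called after Benjamini-Hochberg adjustment over all ORFs, and the smallest adjusted p was 0.930. The unadjusted p from limma was under 0.05 for 196 ORFs, or 4.003% of those tested. This share is no larger than a cut-off of 0.05 gives on average when no ORF differs. The sources do not state that the immunoprecipitates came from separate cultures, so these p-values measure the spread between the 2 arrays alone. Single ORFs are described below by their values on each array. The cut-off separates ORFs that hardly differ. SPAP7G5.06 was just inside the high set, with a third-highest data point of 1.0015, and SPAC3F10.06c just outside it, with 0.9997. On the low side pho2 was just inside with -1.0005 and SPAC26F1.02 just outside with -0.9983.

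Among ORFs with all 4 data points past 2.0, those with the highest value on the array nearer to 0 encode proteins of varied roles. SPAC343.07 (mug28), a meiotic RNA-binding protein gene, led with 3.03 and 2.70 on B1 and 2.55 and 3.01 on B2, a mean of 2.83 ± 0.06 (SD, n = 2 arrays). Its spots were above background in both dyes on both arrays, and its arrays overlapped. The cullin gene pcu3 followed with 2.44 and 2.55, and SPCC306.08c (mdh1, malate dehydrogenase) with 3.19 and 2.38. In pcu3 wild type was under 1.5 times the background on 1 spot of each array, so that its ratio rests on a weak denominator.

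The telomere repeat-binding protein gene taz1, also among these 12, had 2.13 and 2.21 on B1 and 1.73 and 2.12 on B2, with 2.05 ± 0.17 as mean. SPBC428.17c (wpl1), a factor that releases cohesin from DNA, had array means of 2.53 and 2.08. SPBC30B4.04c (sol1), a subunit of the SWI/SNF remodelling complex, had the closest arrays, 1.92 and 1.93. The last of these ranged over its spots from 1.48 to 2.35 on B1, more than the gap between its arrays.

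Of the others SPBC887.15c (sur2), a sphingolipid hydroxylase gene, had 2.82 and 2.09 with bright spots in every channel, and SPAC1039.05c (klf1), a zinc finger transcription factor gene, 2.49 and 2.07. The metacaspase gene SPCC1840.04 (pca1) had 2.24 and 1.97. The gluconeogenic gene fbp1, which encodes fructose-1,6-bisphosphatase, had the widest gap of the 12, with 3.78 on B1 and 1.92 on B2 and a mean of 2.85 ± 1.31 (SD, n = 2 arrays). SPBC660.17c and SPBC18E5.09c, which have no gene symbol, had 3.04 and 2.09, and 2.34 and 2.03. In SPBC18E5.09c wild type was under 1.5 times the background on both spots of both arrays, and in SPBC660.17c on both spots of B1, so that the size of these ratios and their place in the order are uncertain. In all, wild type was dim on at least 1 spot of B1 in 5 of the 12 (these and pcu3, wpl1 and fbp1). On B2 it was so in 5 (SPBC18E5.09c, pcu3, wpl1, fbp1 and pca1), and swm1Δ was dim in 0 on either array. In mdh1, pca1 and klf1 the wild-type signals on B1 passed this level but were only 36, 39.5 and 62.75. The median of that channel was 834, so these B1 ratios also rest on a weak denominator. For H3K4me2 only mdh1 among the 12 was past 2.0 on both arrays, at 1.13 on C1 and 1.58 on C2.

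The 12 lowest ORFs by the same order were led by SPCC584.02 (cuf2), a meiotic transcription factor gene, with -3.18 and -3.34 on B1 and -2.42 and -2.63 on B2, a mean of -2.89 ± 0.52 (SD, n = 2 arrays). SPBC8D2.10c (rmt3), which encodes an arginine methyltransferase for a ribosomal protein, had -2.36 and -2.46, and the cytokinesis gene etd1 -2.06 and -2.11. In etd1 the gap between the arrays was smaller than that between the spots of either array, and in rmt3 smaller than that between the spots of B1. The low call of etd1 was lost with median centring (a mean of -1.30) and on the deposited ratios (-1.45). SPBC36.08c (cog2), a Golgi tethering complex gene, had -2.91 and -2.28, and SPAC1486.03c (ntr1), a splicing factor gene, -2.19 and -1.91.

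Others were lower on B1 than on B2. SPAC19B12.05c (fcp1), the phosphatase of the RNA polymerase II tail, had -4.84 on B1 and -2.05 on B2, and SPAC664.13, with no symbol, -5.15 and -2.34. On B1 the swm1Δ dye of both was under 1.5 times the background on both spots, so that these ratios are uncertain. On the deposited ratios both lost the call and turned in direction, with means of 1.90 for fcp1 and 1.44 for SPAC664.13. SPBC1861.07 (elc1, elongin C) had -3.36 on B1 and spots of -2.09 and -1.92 on B2, the tRNA methyltransferase gene SPCC663.10 (trm44) -3.44 and -2.26 with swm1Δ dim on 1 B1 spot, and SPCC777.06c -3.65 and -2.05. SPAC6B12.03c (bit2) and SPAC4A8.02c had -2.39 and -1.97, and -2.65 and -1.95. Adjusted p was 0.930 for all 24 ORFs, whose unadjusted p from limma ran from 0.00444 to 0.0328. Since they were ordered by these ratios, the agreement of their arrays is a description.

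**Figure D3:**
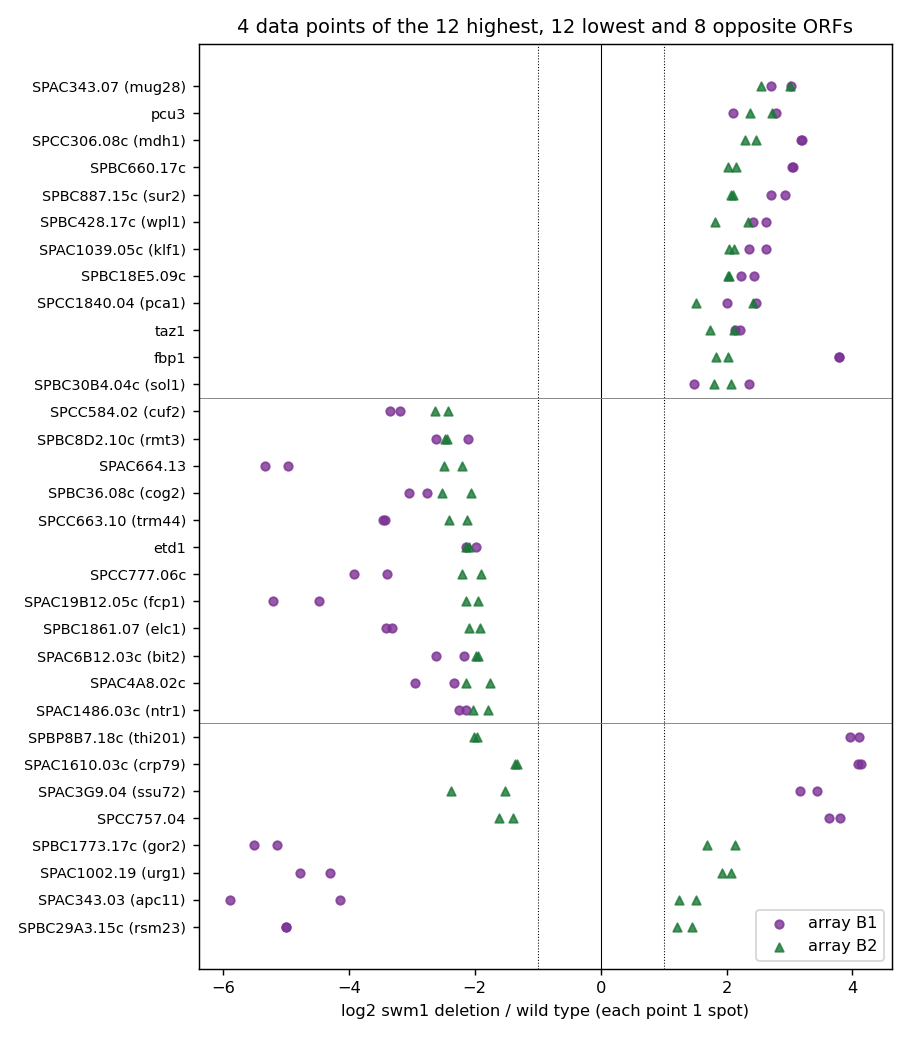
Log2 ratio of swm1Δ over wild type at each of 4 data points (circles B1, triangles B2) for the 12 highest, 12 lowest and 8 opposite ORFs, with dotted lines at ratios of 2.0 and 1/2.0. Points of both arrays lie close together for mug28, taz1, rmt3 and etd1, the 2 B1 points of apc11 lie apart, and the bottom 8 ORFs have the points of B1 and B2 on opposite sides of 0.

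Other ORFs lay far apart on the 2 arrays. SPBP8B7.18c (thi201) had 4.10 and 3.97 on B1 and -2.01 and -1.96 on B2. The mRNA export factor gene SPAC1610.03c (crp79) had 4.11 and -1.34, the polymerase tail phosphatase gene SPAC3G9.04 (ssu72) 3.30 and -1.95, and SPCC757.04 3.72 and -1.50. In the other direction SPBC1773.17c (gor2) had -5.32 and 1.91, SPAC1002.19 (urg1) -4.54 and 2.01, SPAC343.03 (apc11), a subunit of the anaphase-promoting complex, -5.01 and 1.38, and SPBC29A3.15c (rsm23), a mitochondrial ribosomal protein gene, -5.00 and 1.33. All 4 of the latter had at least 1 spot of B1 under 1.5 times its Cy5 background. On the deposited ratios all 4 were instead high, with means of 4.26 for gor2, 4.10 for urg1, 3.85 for apc11 and 3.64 for rsm23, so their opposite values depended on which ratios of B1 were used. In thi201, ssu72 and SPCC757.04 no spot was under that level. In SPCC757.04, however, the wild-type signal on B1 was 20.75, or 1.60 times its background, so the size of its B1 ratio is uncertain.

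The Tf2 retrotransposons give several features of nearly the same sequence, which may cross-hybridise. Their 12 features ranged from -0.18 to 1.92 on B1 (median 1.21, with 11 above 0) and from -0.76 to 0.46 on B2 (median -0.36, with 11 below 0). Of these tf2-5 was above 0 on both arrays and tf2-1 below 0 on both, the others were above 0 on B1 and below 0 on B2, and 0 of them were called. They share a source and are not replicates.

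Across 17 lists of genes of related function 9 genes were high (6.16% of those measured) and 6 low (4.11%), beside 3.62% and 3.78% of all ORFs. The lists were chosen with earlier results of these data known, so these shares and those of each list are a description. Among genes of the Swm1/2 complex 0 of 4 were called. The partner gene swm2 (SPAC23E2.02) had 0.04 on B1 and 1.04 on B2, swp1 (SPCC4G3.07c) -1.03 and 0.93, and swp2 (SPAC30D11.08c) 1.26 and 0.18. In each the arrays lay further apart than the spots of either array. With median centring and on the deposited ratios swm2 was high, with means of 1.31 and 1.04.

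In the list of the H3K9 methyltransferase complex clr4, the gene of the methyltransferase itself, was low. It had -1.08 and -0.50 on B1 and -1.13 and -1.20 on B2, and a mean of -0.98 ± 0.26 (SD, n = 2 arrays). A scanner flag marked 1 of its spots on B1. The call was lost with median centring (-0.56), on the deposited ratios (-0.61) and without B2 (-0.79). Of the chromodomain readers, 0 of 3 were called, and chp2 (1.13 and 0.40) and chp1 (-0.03 and 0.11) were the highest and lowest. Of the RNA interference genes, 0 of 9 were called, with the Argonaute gene ago1 (SPCC736.11) highest at 1.24 and 0.94 and the Dicer gene dcr1 (SPCC188.13c) lowest at -0.90 and -0.18.

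The histone deacetylases and the silencing complex SHREC had 0 of 10 members called. Within them clr3, a deacetylase of SHREC, had 3.95 and 3.92 on B1 but 0.85 and 0.73 on B2, and clr1 (SPBC2D10.17) of the same complex -1.92 and -0.46. Of 6 other methylation enzymes and Epe1, 0 were called, with set1 (SPCC306.04c), the H3K4 methyltransferase gene, at 1.45 and 0.64 and jmj2 (SPAC1002.05c), a JmjC domain protein gene, at -0.12 and -1.36.

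Proteins of centromeres and telomeres had 2 of 9 members high, taz1 and the CENP-B homologue cbh2, which had 3.12 and 1.12. The median of this list was 0.56, against 0.02 over all ORFs. Of its 9 members 5 were above 0 on both arrays, beside 1334 of all 4896 ORFs. In the cohesin and centromere list 1 of 6 was high, the meiotic cohesin subunit gene rec8, at 2.17 and 0.98. This call was lost with median centring (1.04), without background correction (1.60) and without B1 (0.98). The same gene is a target of the RNA elimination factor Mmi1. In that list of 5 measured genes SPAC13A11.03 (mcp7) was low with -5.56 and -1.18, and its swm1Δ dye was dim on both B1 spots. On the deposited ratios its mean turned to 1.80 and the call was lost.

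DNA damage checkpoint genes were called in both directions. The clamp subunit gene rad9 had 2.17 and 1.88, with wild type dim on 1 B1 spot. The clamp loader gene rad17 had 1.92 and 1.30, with wild type dim on 1 B2 spot. The kinase partner gene rad26 was low with -0.95 and -1.24, and its B1 spots differed, at -0.33 and -1.56. A scanner flag marked 1 of its spots on B1 and 2 on B2. Its call was lost with median centring (-0.73), without background correction (-0.59), on the deposited ratios (-1.04) and without B2 (-0.95), and that of rad17 without background correction (1.27). Of 9 measured members these were the ones called, and the list's median was -0.43. The structure-specific nuclease gene mus81 was the 1 high member of 9 recombination genes, at 2.53 and 1.73.

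The remaining lists held 1 or 2 called members at most. The 19S proteasome gene rpn5 (2.98 and 1.31), the vacuolar sorting gene vps16 (2.04 and 1.06) and the protein kinase C gene pck1 (1.69 and 1.08) were high. In rpn5 the wild-type signal on B1 was 27.5, or 2.29 times its background, so the size of its B1 ratio is uncertain. The RNA polymerase II subunit genes rpb10 (-3.13 and -1.03) and rpb11 (-3.40 and -1.07) were low. So was the TOR pathway GTPase gene SPBC337.13c (gtr1), with -4.44 on B1 and spots of -0.86 and -1.15 on B2. In gtr1 swm1Δ was dim on 1 B1 spot, and the deposited ratios were not complete. With median centring 5 of these 6 lost the call, with means of 0.92 for vps16, 0.86 for pck1, -1.48 for rpb10, -1.63 for rpb11 and -2.08 for gtr1, and rpn5 stayed high. Without background correction pck1 (1.06) and gtr1 (-1.79) lost it, and without B1 vps16, pck1, rpb10 and gtr1, whose B2 means are near the cut-off. RNA polymerase II and TOR pathway genes had medians of -1.43 and -2.34 on B1 but 0.66 and 0.42 on B2, and each had 2 members past the cut-off in opposite directions. Of 15 DNA replication genes 0 were called, although mcm6 had 3.72 on B1, with 0.14 on B2, and cdc19 (mcm2) -6.20, with -0.76 on B2 and the swm1Δ dye at background on B1.

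**Figure D4:**
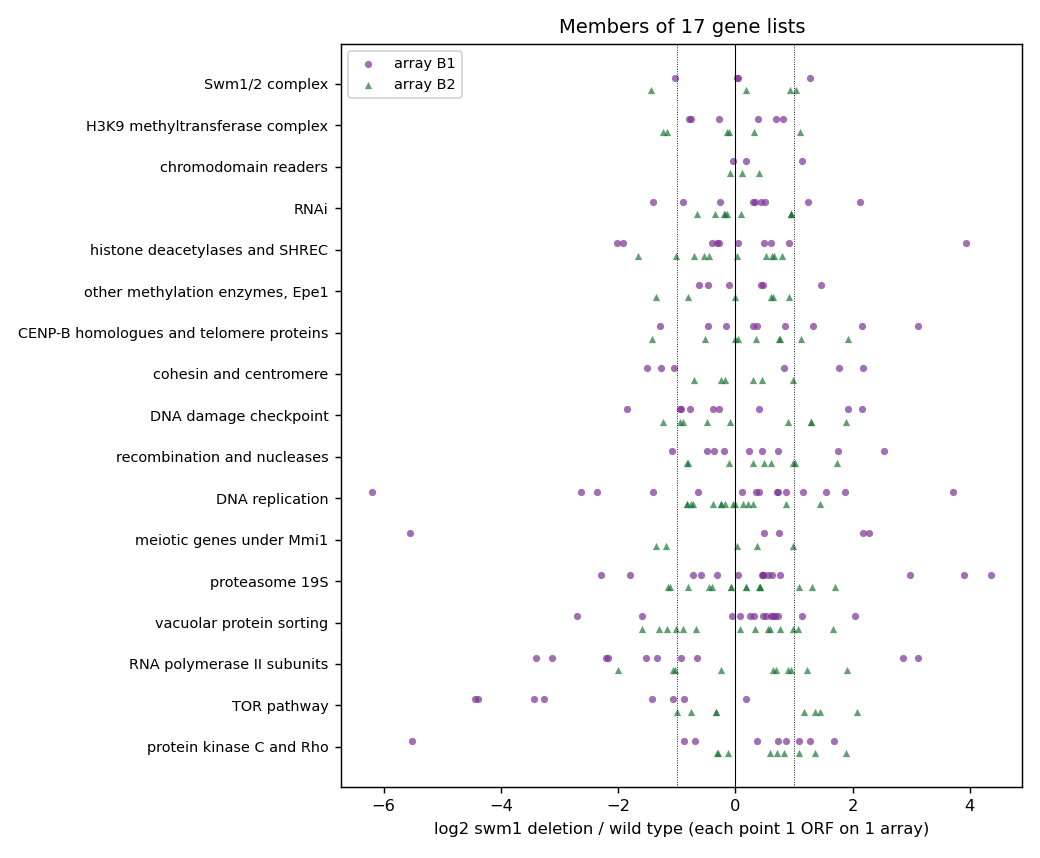
Log2 ratio of swm1Δ over wild type of each measured member of 17 gene lists, with 1 circle per ORF for B1 and 1 triangle for B2 and dotted lines at ratios of 2.0 and 1/2.0. The circles spread wider than the triangles, and RNA polymerase II and TOR pathway members lie mostly below 0 on B1 and on both sides of 0 on B2.

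The called ORFs were spread over the chromosomes. By gene order in the ASM294v3 assembly, 4633 ORFs were placed. High ORFs made up 4.07% of those on chromosome I, 3.71% on II and 2.72% on III, and low ORFs 3.50%, 3.83% and 4.62%. Of 171 placed high ORFs 15 lay in 8 adjacent pairs, such as pcu3 with SPAC24H6.02c and rad17 with SPAC14C4.15c, and of 177 low ORFs 19 lay in 10 pairs. The number of pairs in a random order was not worked out, so these counts do not show whether called ORFs cluster. The ratio of an ORF correlated with that of the next ORF at 0.018 on B1 and 0.058 on B2, and for H3K4me2 at 0.157 on C1 and 0.182 on C2.

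Ratios of both marks lay above 0 at the median over 25 neighbouring ORFs that begin with SPCC306.11 and end with SPCC364.02c on chromosome III, a run chosen with its values known. Its median H3K9me2 ratio was 1.09 on B1 and 0.99 on B2, against 0.08 and -0.05 over the 25 ORFs on each side. Of its ORFs 18 were above 0 on B1, 21 on B2 and 15 on both, and 5 were high and 0 low, beside 1 high and 1 low among the 50 flanking ORFs and 3.62% and 3.78% of all ORFs. Since the run was chosen by these ratios, its counts are a description. The high ORFs were mus81, SPCC4G3.18 (rix1) at 2.11 and 1.51, SPCC4G3.09c (gyp3) at 2.12 and 1.75, SPCC4G3.11 (nur1) at 4.74 and 1.06, and SPCC364.02c (bis1) at 3.30 and 1.47. The run also holds swp1, which was below 0 on B1, and SPCC4G3.17 (hdd1), which had -1.21 on B1 and 1.12 on B2. The H3K4me2 medians of the run were 1.40 on C1 and 1.27 on C2. A ratio of immunoprecipitates without input does not tell more of a mark from more copies of the DNA, so these cannot be told apart here.

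**Figure D5:**
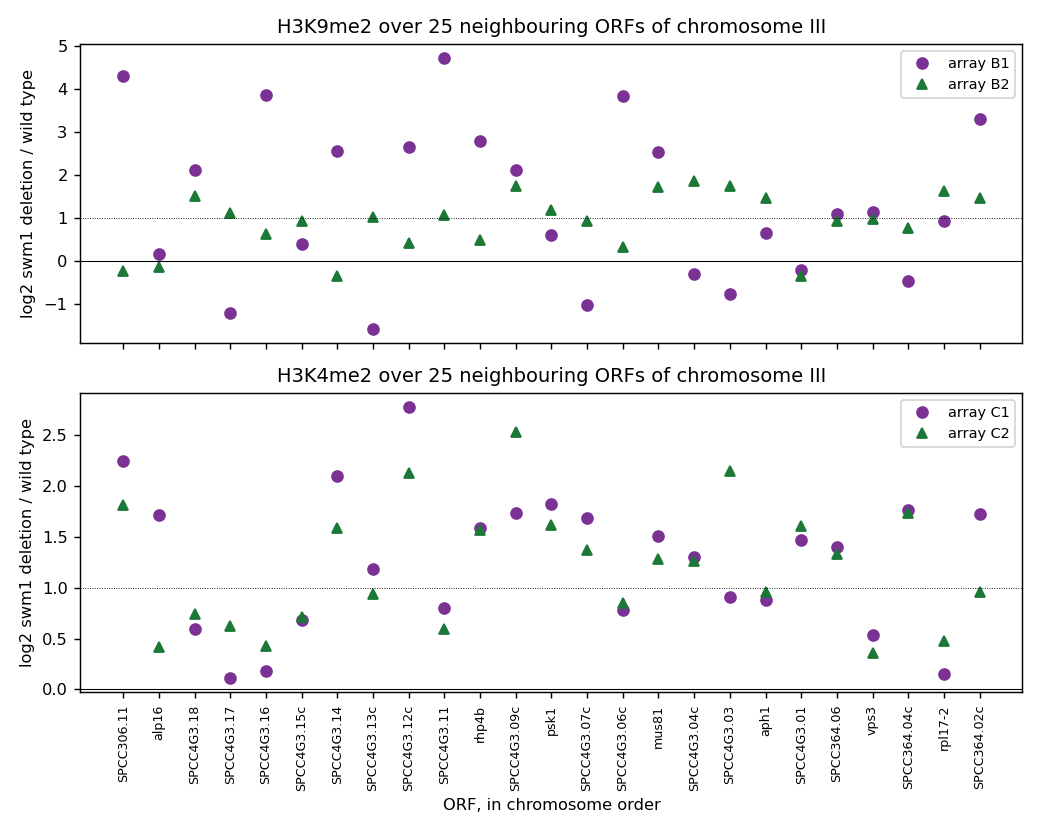
Log2 ratio of swm1Δ over wild type for 25 neighbouring ORFs of chromosome III in their order, for H3K9me2 (upper panel, arrays B1 and B2) and H3K4me2 (lower panel, C1 and C2), with a dotted line at a ratio of 2.0. All H3K4me2 points lie above 0, while 18 of the B1 and 21 of the B2 points do.

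Elsewhere, windows of 25 neighbours were ordered by the array median nearer to 0, and the next highest were 2 stretches of chromosome I. The one from SPAC343.03 to SPAC824.08, with medians of 0.93 and 0.79, holds mug28 and vps16 among its 4 high ORFs, and that from cid1 to SPAC11E3.03, with 0.86 and 0.60, holds rad17 among its 5. Their H3K4me2 medians were 0.39 and 0.11, and 0.08 and -0.16. The lowest window in this order, with medians of -0.74 and -0.54, ran from SPAC1002.14 to SPAPB1A10.14 on the same chromosome, and held 1 high and 1 low ORF. These windows were picked from 4561 by their values.

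Low ORFs had a shorter median coding length than all ORFs, and high ORFs a similar one. It was 927 bp for low and 1199 bp for high ORFs, against 1167 bp for all, and the median GC content was 39.0%, 39.6% and 39.7%. These differences were not tested. Across ORFs the mean ratio had a Spearman correlation of 0.070 with coding length and of -0.020 with GC content. Over the 48 print blocks of the array the median ratio ran from -0.98 to 0.67 on B1 and from -0.32 to 0.73 on B2, and a block held 0 to 11 high and 1 to 8 low ORFs. The part of print blocks in the calls was not tested.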

How the data were processed

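For both dyes, the authors deposited uncorrected scanner intensities, as medians of the signal and of the local background at every spot. The authors also deposited log2 ratios per spot, normalized with Lowess, which served as an alternative; 26 of the 28 columns of the deposited tables were not used. No genome build is named in the sources used here, so no coordinates are given, and 4637 of 4885 ORF names were matched to RefSeq genes (ASM294v3) for names, gene order, coding length and GC content.

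Intensities were background corrected (limma 3.58.1 in R 4.3.3, normexp, offset 50), loess normalized within each file with weight 0 for the 867 control and 154 missing features, turned to swm1Δ over wild type, and averaged over 2 spots. Tables used Python 3.11.15 with pandas 2.3.3. The rule and the limma test were run on simulated arrays to check the code. Only the rule had to pass, on arrays that agree more closely than B1 and B2, so this is no support for the calls. Named are the 12 highest and lowest ORFs by the array nearer to 0 among those past 2.0 in all data points, the 4 widest gaps in each direction among opposite ORFs, list members that pass the rule, the Swm1/2 complex, and otherwise the highest and lowest list member. Members and lists were chosen with earlier results of these data known. With 2 arrays per ORF, their number limits the precision. Alternatives were another dye reading of B1, median centring, no background correction, no dim spots, deposited ratios, other cut-offs and leaving out each array. Values of 1 list member are not reported here.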

Additional observations from a re-analysis of the deposited data

How the results depend on the processing

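The number of ORFs called depended on the processing. With median centring in place of loess 289 ORFs were high and 183 low, so that 61.2% of the calls were high in place of 48.9%, with 123 of the 177 high ORFs shared. This moved the median of B1 from 0.12 to -0.0050. On the deposited ratios 269 were high and 171 low, or 61.1% high, with a median of 0.46 on B1, and limma called 3 ORFs in place of 0. These were SPAC26A3.11, SPBP8B7.05c and SPBC1773.17c, named after their values were seen, with limma adjusted p from 0.0289 to 0.0331. SPBC1773.17c had 5.60 on B1 where the scanner intensities gave -5.32. On B2 SPAC26A3.11 had 6.91 and SPBP8B7.05c -6.64 where the scanner intensities gave 3.28 and -0.61. At a cut-off of 1.5 there were 494 high, 458 low and 562 opposite ORFs, and with all 4 data points required 105 were low. Calls from a single array ranged from 472 high and 402 low ORFs without B1 to 1014 and 1164 without B2. With B1 scaled to the spread of B2, chosen after seeing the data, 73 were high, 106 low and 87 opposite. Without the run on chromosome III, also chosen then, 172 were high. The correlation of the arrays was 0.0162 with median centring, 0.0292 on the deposited ratios and -0.0594 with B1 read by its ORF label.

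Of 38 named ORFs that were called, 33 kept their call without background correction, 29 with median centring and, of the 37 with a deposited ratio, 31 on the deposited ratios. There SPAC664.13, SPAC19B12.05c and SPAC13A11.03 turned to 1.44, 1.90 and 1.80. On B1 157 spots had a deposited ratio of opposite sign, both past 2.0, and 134 of these had dim Cy5. The cause was not tested. With B1 read by its own label, which turns its ratios by construction, 32 mean ratios changed sign. Those of high ORFs became -0.042 for SPAC343.07, -0.41 for SPCC306.08c, -0.48 for SPBC660.17c, -0.37 for SPBC887.15c, -0.22 for SPBC428.17c, -0.21 for SPAC1039.05c, -0.15 for SPBC18E5.09c, -0.14 for SPCC1840.04, -0.12 for taz1, -0.93 for fbp1, -0.996 for cbh2, -0.60 for rec8, -0.14 for rad9, -0.31 for rad17, -0.40 for mus81, -0.83 for rpn5, -0.49 for vps16 and -0.31 for pck1. Those of low ORFs became 0.37 for SPCC584.02, 1.40 for SPAC664.13, 0.31 for SPBC36.08c, 0.59 for SPCC663.10, 0.80 for SPCC777.06c, 1.39 for SPAC19B12.05c, 0.68 for SPBC1861.07, 0.21 for SPAC6B12.03c, 0.35 for SPAC4A8.02c, 0.14 for SPAC1486.03c, 2.19 for SPAC13A11.03, 1.05 for rpb10, 1.16 for rpb11 and 1.72 for SPBC337.13c.

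The ratio of an array pairs both strains, and the limma test of its mean is thus a paired test. No paired analysis was possible beyond it because 1 ratio per array leaves no replicate number to block on. With 2 arrays, a dim Cy3 channel on B1 and no input, the size of a ratio is least certain where a dye was near background.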
